A study of Homo sapiens with 12 samples.

Results

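Cytosolic ribosomal protein genes in HL-60 cells, a human promyelocytic leukaemia line, were followed after the histone demethylase JMJD3 was raised or its gene disrupted. The genes were taken by name: RPL or RPS with a number and at most one of the letters A, X or L, together with RPLP0, RPLP1, RPLP2 and RPSA. This rule found 82 genes of 60660 in the overexpression table and the same 82 of 60662 in the knockout table. JMJD3 overexpression cells were HL-60 transduced with JMJD3, and Vector control cells were HL-60 transduced with a control vector. JMJD3 knockout cells were HL-60 labelled as lacking JMJD3, and Parental cells were the HL-60 cells labelled as parental. Each of the 4 groups had 3 libraries of total RNA, and the labels name neither a promoter, a dose, a clone nor a treatment. Nor do they say whether the replicates of a group came from separate cultures. The p-values therefore reflect library-to-library spread, part or all of which may be technical.

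Ribosomal proteins are the protein part of the ribosome, where messenger RNA is translated. The small subunit (genes named RPS, with RPSA) reads the message, and the large subunit (RPL) joins the amino acids. RPLP0, RPLP1 and RPLP2 form the stalk of the large subunit, which calls in elongation factors. Most of these messages open with a C followed by a run of pyrimidines, the terminal oligopyrimidine tract, through which the mTORC1 kinase and the RNA-binding protein LARP1 set their translation and stability. JMJD3 is the product of KDM6B and demethylates histone H3 at lysine 27, the residue that Polycomb complexes methylate. Loss of a single ribosomal protein gene such as RPS19, RPS26 or RPL5 is known to cause Diamond-Blackfan anaemia, a failure of red cell formation.

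The tract can be read from the gene starts. RefSeq start entries (GRCh38.p14) were found for 64 of the 82 genes. A run of at least 5 pyrimidines that opens with C exactly at an annotated start stood in 46 of those 64 genes (71.9%), against 5.14% of 27305 genes with an entry. The sequences below run from 15 bases before the annotated start to 14 after it on the gene's strand, in capitals where the run was found. They are shown for the genes that the comparisons turn on, and a gene with no capitals had no such run at that start.
RPS26 (chr12:56041903-56041932, plus strand): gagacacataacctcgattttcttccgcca
RPS27L (chr15:63157463-63157492, minus strand): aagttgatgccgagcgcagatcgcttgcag
RPL3 (chr22:39319609-39319638, minus strand): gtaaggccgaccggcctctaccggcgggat
RPL14 (chr3:40457324-40457353, plus strand): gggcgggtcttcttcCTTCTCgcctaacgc
RPLP0 (chr12:120201097-120201126, minus strand): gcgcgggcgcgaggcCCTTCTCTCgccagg
RPL13A (chr19:49487593-49487622, plus strand): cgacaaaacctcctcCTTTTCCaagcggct
RPL28 (chr19:55385917-55385946, plus strand): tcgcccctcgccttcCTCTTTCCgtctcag
RPS3A (chr4:151099613-151099642, plus strand): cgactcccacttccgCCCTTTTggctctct

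The runs in RPL14, RPLP0, RPL13A, RPL28 and RPS3A begin at the first transcribed base, whereas the starts of RPS26, RPS27L and RPL3 hold none under this rule. An annotated start can lie a few bases from the start used in these cells, which these files do not show. The E-box CACGTG, a palindrome that reads alike on both strands, was present in the 250 bases before a start in 3 of the 64 genes (4.69%), against 7.73% of all genes with an entry. Both searches were chosen after the expression values had been seen.

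Library depth was 26861304 to 39031315 expected counts in the overexpression table and 28563546 to 43647715 in the knockout table. KDM6B stood at 98.0, 99.5 and 83.9 CPM (counts scaled to library size) in JMJD3 overexpression libraries, against 35.2, 34.8 and 24.7 CPM in Vector control libraries. It stood at 37.2, 45.2 and 36.9 CPM in JMJD3 knockout libraries, against 56.6, 56.6 and 59.0 CPM in Parental libraries, so transcript remained in the cells labelled as knockout. Of 13 genes typical of promyelocytes, 12 reached 1 CPM in a library of every group. Their summed level was 10819 to 12195 CPM in JMJD3 overexpression libraries and 19597 to 24716 CPM in Vector control libraries. The part of that difference in the results below was not tested. ELANE, one of the 13, was at 0 in JMJD3 knockout libraries. The erythroid markers HBB, HBA2 and ALAS2 were at 0 in every group.

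Ribosomal protein messages were abundant throughout. On the authors' FPKM scale, which divides by gene length, 77 of the 82 genes averaged over 100 FPKM in every group. RPS27 was highest, with 14033 ± 933 FPKM in JMJD3 overexpression cells and 13417 ± 502 FPKM in Vector control cells (SD, n = 3 each), and with 16067 ± 901 FPKM in JMJD3 knockout cells and 16755 ± 471 FPKM in Parental cells (SD, n = 3 each). RPS24, RPS2, RPL41 and RPS18 followed by the mean over all libraries. The order among them is not firm: RPS2 and RPL41 changed places between the overexpression and the knockout table. At the other end RPS27L averaged 32.4 ± 2.02 FPKM in JMJD3 overexpression cells and 45.1 ± 5.77 FPKM in Vector control cells (SD, n = 3 each). RPL39L, a paralog of RPL39 known from testis and from tumours, averaged 11.3 ± 1.70 FPKM in JMJD3 overexpression cells and 9.58 ± 0.755 FPKM in Vector control cells (SD, n = 3 each).

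RPL3L, RPL10L and RPS10L were close to 0 and were not tested. RPL3L, known from skeletal muscle and heart, had 10 counts in the JMJD3 overexpression libraries together and 4 in the Vector control libraries, and 10 in the JMJD3 knockout libraries and 6 in the Parental libraries. RPL10L, known from testis, had 1 count in JMJD3 overexpression and 2 in Vector control libraries, and 1 in JMJD3 knockout and 0 in Parental libraries. RPS10L, which GENCODE 29 lists as the processed pseudogene RPS10P5, had 12 counts in JMJD3 overexpression and 0 in Vector control libraries, and 12 in JMJD3 knockout and 8 in Parental libraries. The other 79 genes passed the filter on low counts in both tables. All counts below are out of these 79.

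With JMJD3 overexpression, ribosomal protein genes stood slightly below the vector control, and RPS26 stood far below the rest. In edgeR's quasi-likelihood test with Benjamini-Hochberg adjustment over 14322 genes, 17 of the 79 fell and 0 rose. Over all genes tested 23.9% were called lower and 26.4% higher, so the 17 called lower (21.5%) are close to the background share, while no gene was called higher. At an unadjusted p under 0.05 the count of rises was also 0, against 4195 of the 14322 genes tested. DESeq2 called 0 higher and 19 lower, against 26.3% higher and 24.9% lower over all genes. The median log2 fold change was -0.18, against -0.003 for all genes tested, and 74 of the 79 values were below 0. The 8 large-subunit genes that fell were RPL4, RPL10, RPL14, RPL17, RPL23, RPL23A, RPL28 and RPL30, and RPLP0 fell in the stalk. The 8 small-subunit genes that fell were RPS3A, RPS4X, RPS13, RPS19, RPS26, RPS27A, RPS27L and RPSA. All 3 JMJD3 overexpression libraries lay below all 3 Vector control libraries in 29 of the 79 genes and above them in 0, against 28.3% below and 30.6% above over all genes tested.

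**Figure D1:**
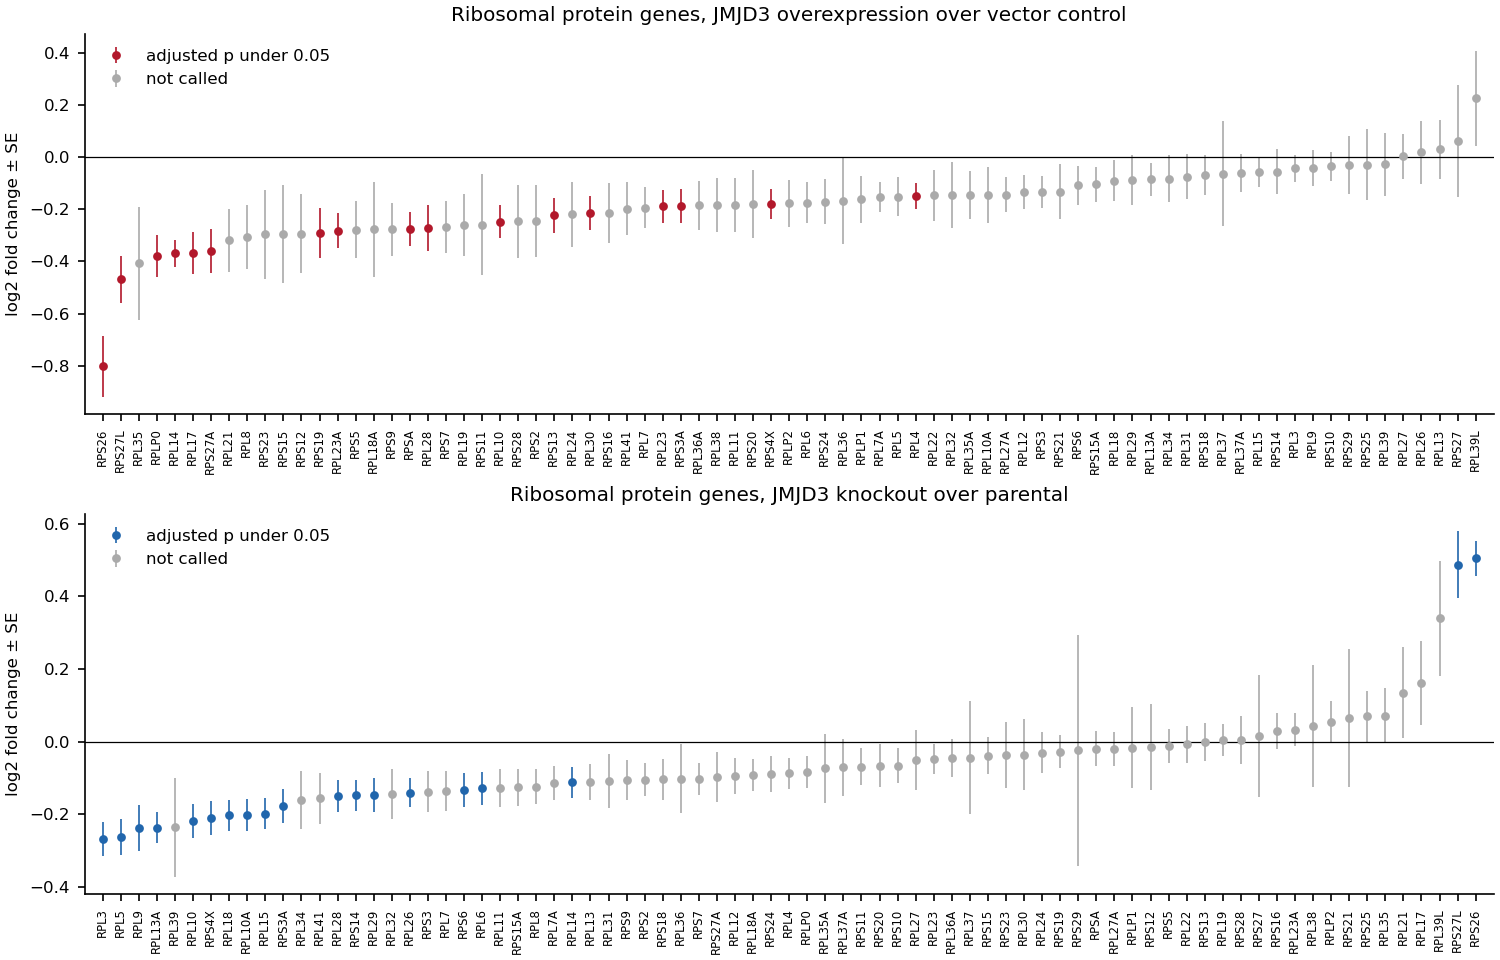
Log2 fold change with its standard error for 77 of the 79 tested ribosomal protein genes, ordered within each panel, for JMJD3 overexpression over Vector control (top) and JMJD3 knockout over Parental (bottom). Coloured points passed an adjusted p of 0.05 and grey points did not. RPS26 lies at -0.80 in the top panel and at 0.50 in the bottom one, while most other genes lie between 0 and -0.4.

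That count moved with the treatment of replicates and with scaling. Same-numbered libraries deviated together in the overexpression table, but replicates 1 and 2 did so across numbers as well. A fit blocked on replicate number found that 56 of the 79 genes fell and 0 rose, against 36.8% lower and 36.4% higher over all genes. Of the 17 genes called without the block, 16 were among the 56, and RPS27A was not (adjusted p = 0.0903 in edgeR with the block). Replicates 1 and 2 alone gave 50 lower and 4 higher, the 4 being RPL13, RPL26, RPL39L and RPS29, against 34.5% lower and 35.6% higher over all genes. With replicates 1 and 2 of each group summed into 1 library, 3 genes fell and 0 rose (11.1% lower and 17.4% higher over all genes). Upper-quartile scaling left 7 lower and 0 higher (18.6% lower and 30.6% higher over all genes). Scaling by library size alone left 4 lower and 0 higher (15.4% lower and 33.4% higher over all genes). It moved the median of all genes to 0.14 and the median of ribosomal protein genes to -0.03, so these genes stayed below the typical gene by a like amount. Leaving out 1 library moved the share over all genes too. Without Vector control replicate 1, 11 genes were lower (18.6% of all genes), without its replicate 2, 9 were (18.5%), and without its replicate 3, 22 were (24.3%). Without JMJD3 overexpression replicate 1, 8 genes were lower (18.5% of all genes), without its replicate 2, 8 were (18.1%), and without its replicate 3, 11 were (23.4%). The last of these also brought the median of the ribosomal protein genes to -0.10. RPS26, RPS27L and RPL14 were called lower under each of the 18 alternatives run.

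RPS26 (GRCh38 chr12:56041351-56044697, plus strand), a small-subunit protein at the exit of the messenger RNA channel, showed the largest difference. It had 145, 142 and 180 CPM in JMJD3 overexpression libraries, against 253, 258 and 304 CPM in Vector control libraries. In both groups the third replicate was the highest, and the groups did not overlap. The log2 fold change was -0.80 ± 0.12 (SE), a level 0.573 of the vector control (adjusted p = 0.000987, edgeR).

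RPS27L (chr15:63125872-63158021, minus strand), a paralog of RPS27 that is known as a p53 target, was lower as well. It had 19.4, 21.0 and 17.5 CPM in JMJD3 overexpression libraries, against 26.5, 26.3 and 27.3 CPM in Vector control libraries. The 3 Vector control libraries lay within 1 CPM of each other and above every JMJD3 overexpression library. The log2 fold change was -0.47 ± 0.09 (SE; adjusted p = 0.00358, edgeR), while RPS27 itself was at 0.06 ± 0.21 (adjusted p = 0.832, edgeR).

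RPL14 (chr3:40457292-40468587, plus strand), a large-subunit protein, had 1044, 1056 and 1028 CPM in JMJD3 overexpression libraries, against 1331, 1350 and 1357 CPM in Vector control libraries. Every JMJD3 overexpression library lay below every Vector control library, and the gap between the groups was wider than the range within either. The log2 fold change was -0.37 ± 0.05 (SE; adjusted p = 0.000856, edgeR).

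RPLP0 (chr12:120196686-120201235, minus strand), the base of the stalk and a common reference transcript in quantitative PCR, had 2904, 2936 and 2484 CPM in JMJD3 overexpression libraries, against 3644, 3776 and 3409 CPM in Vector control libraries. The third replicate was the lowest of both groups, and the groups did not overlap. The log2 fold change was -0.38 ± 0.08 (SE; adjusted p = 0.00592, edgeR), but with replicates 1 and 2 summed the adjusted p was 0.0549. The other stalk genes were not called, at -0.16 ± 0.09 for RPLP1 and -0.18 ± 0.09 for RPLP2. With the block RPLP2 was called lower (adjusted p = 8.48e-05, edgeR) and RPLP1 was not (0.329), and with replicates 1 and 2 summed RPLP2 was not called either (0.287).

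RPL17, which lines the peptide tunnel, had 238, 235 and 237 CPM in JMJD3 overexpression libraries, against 283, 295 and 339 CPM in Vector control libraries (log2 fold change -0.37 ± 0.08, adjusted p = 0.00696, edgeR). RPS27A, made as a fusion with ubiquitin, had 474, 501 and 437 CPM in JMJD3 overexpression libraries, against 562, 591 and 659 CPM in Vector control libraries (-0.36 ± 0.08, adjusted p = 0.00926, edgeR). In both genes replicate 3 of the Vector control was the highest library. RPS19, the gene most often mutated in Diamond-Blackfan anaemia, was at -0.29 ± 0.10 (adjusted p = 0.0378, edgeR) and RPL23A at -0.28 ± 0.07 (adjusted p = 0.00967, edgeR). RPSA, also known as the laminin receptor precursor, was at -0.28 ± 0.07 (adjusted p = 0.00966, edgeR), with 34.7% of the reads on it or its 74 named pseudogenes assigned to the pseudogenes.

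RPL17, RPS27A and RPSA lost the call with replicates 1 and 2 summed, with adjusted p of 0.0614, 0.0572 and 0.106 in edgeR. RPS19 and RPL23A lost it too, at 0.171 and 0.0921. RPL35 shows how the third replicates bear on a call. It had 543, 529 and 345 CPM in JMJD3 overexpression libraries, against 702, 714 and 462 CPM in Vector control libraries. Within each replicate number the JMJD3 overexpression library was lower, yet the groups overlapped, and the log2 fold change of -0.41 ± 0.22 was not called (adjusted p = 0.157, edgeR) but was with the block (4.29e-19). With replicates 1 and 2 summed it was not called (adjusted p = 0.31, edgeR).

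Several genes often studied on their own were not called without the block. RPL5 and RPL11, which bind the 5S ribosomal RNA, were at -0.15 ± 0.07 and -0.18 ± 0.10. RPS6, the substrate of S6 kinases, was at -0.11 ± 0.07 and RPS14, lost in the 5q- syndrome, at -0.06 ± 0.09. RPL13A and RPS18, common reference transcripts, were at -0.09 ± 0.06 and -0.07 ± 0.08. With the block RPL5, RPL11, RPS6 and RPL13A were called lower, whereas RPS14 and RPS18 were not (adjusted p = 0.0780 and 0.482, edgeR with the block). RPL35A, a Diamond-Blackfan gene, was at -0.14 ± 0.09 and was called neither way with the block (adjusted p = 0.36, edgeR). The abundant RPS2, RPS24 and RPL41 were at -0.25 ± 0.14, -0.17 ± 0.09 and -0.20 ± 0.10, and were called lower with the block. None of RPL5, RPL11, RPS6, RPL13A, RPS2, RPS24 and RPL41 was called with replicates 1 and 2 summed (adjusted p between 0.276 and 0.54, edgeR).

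**Figure D2:**
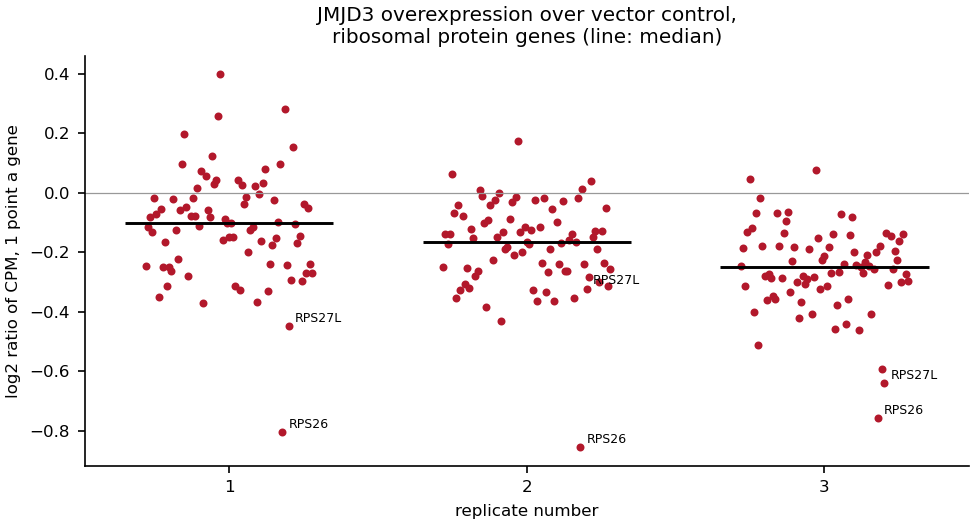
Log2 ratio of CPM, JMJD3 overexpression over Vector control, between libraries of the same replicate number, with 1 point for each of the 79 tested genes and a line at the median. The medians lie at -0.10, -0.17 and -0.25 for replicates 1, 2 and 3, and RPS26 lies between -0.76 and -0.86 in each.

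Within the replicate numbers, the ratio was below 0 for 61 of the 79 genes in replicate 1, 74 in replicate 2 and 77 in replicate 3. The medians were -0.10, -0.17 and -0.25, against medians between -0.01 and 0.01 for all genes. Replicates 1 and 2 of a group lay close together. A chi-square per gene, where 1 is counting noise, averaged 1.72 between JMJD3 overexpression replicates 1 and 2 and 2.01 between the Vector control ones. Against replicate 3 it averaged 34.7 and 33.4 for JMJD3 overexpression and 41.4 and 43.9 for Vector control. Over the ribosomal protein genes alone replicates 1 and 2 gave 5.98 for JMJD3 overexpression and 28.2 for Vector control. The spread between replicates 1 and 2 was thus above counting noise, which does not show that they are independent. They were kept apart in the unblocked fit and summed in the alternative given above. Whether they are separate cultures is not given in the labels.

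In the third replicates of the overexpression table more ribosomal protein genes were lower than higher, set against the first 2 replicates of both groups. In a fit with that split as a term, 47 of the 79 genes were lower and 12 higher in the third replicates, against 25.7% lower and 27.1% higher over all genes tested. The median CPM ratio of the third replicate over the first 2 was -0.23 on the log2 scale in JMJD3 overexpression cells and -0.10 in Vector control cells. By the fitted term RPL35 was lowest, at -0.64 in JMJD3 overexpression and -0.62 in Vector control cells. RPS12 was highest by the same term, at 0.26 in JMJD3 overexpression and 0.50 in Vector control cells, and RPS26 stood at 0.32 in JMJD3 overexpression and 0.25 in Vector control cells. With this split as a term, chosen after the data had been seen, 58 genes were lower with JMJD3 overexpression and 0 higher, against 37.1% lower and 36.7% higher over all genes. The third replicates held more counts than the first 2 in both groups, and the labels name no batch.

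**Figure D3:**
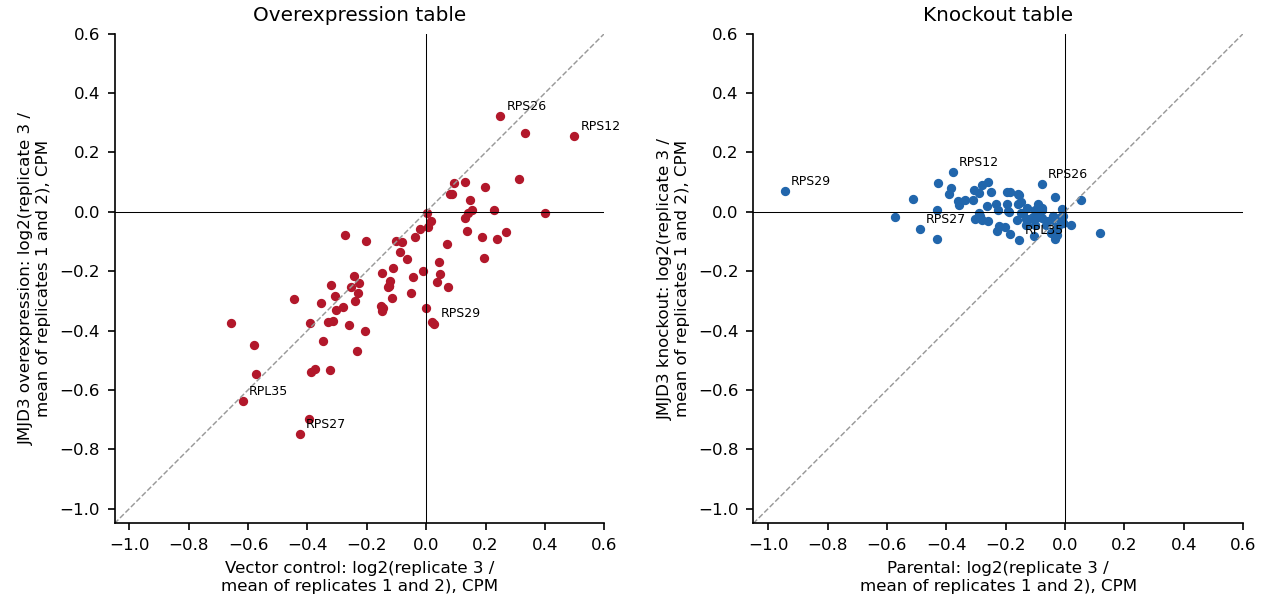
Log2 ratio of CPM in replicate 3 over the mean of replicates 1 and 2, with 1 point for each of the 79 tested genes, in JMJD3 overexpression against Vector control (left) and JMJD3 knockout against Parental (right), and a dashed line of equality. On the left both groups move together, from RPL35 and RPS27 at the low end to RPS26 and RPS12 at the high end, and on the right the spread runs along the Parental axis.

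On the FPKM scale the shift of the third replicates was smaller, with medians of -0.04 in JMJD3 overexpression and 0.05 in Vector control cells. The length by which counts were divided moved with it. For RPS29, one of the shortest of these genes, counts per FPKM relative to RPL3 were 0.0446, 0.0423 and 0.0292 in JMJD3 overexpression replicates 1, 2 and 3, and 0.0362, 0.0416 and 0.0296 in Vector control ones. For RPLP0, a longer gene, they were 0.780, 0.785 and 0.766 in JMJD3 overexpression and 0.784, 0.786 and 0.767 in Vector control libraries. The RPS29 ratio was lowest in replicate 3 of both groups, and the part of this in the calls was not tested.

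In JMJD3 knockout cells RPS26 and RPS27L rose, and 18 other genes fell by small amounts. Of the 79 genes, 18 fell (22.8%) and 2 rose (2.53%) in edgeR's quasi-likelihood test with Benjamini-Hochberg adjustment over 14186 genes, against 20.2% lower and 17.6% higher over all genes tested. The share that fell is thus near the background, and the share that rose is below it. Large-subunit genes made up 13 of the 18 and 44 of the 79 tested, a difference that was not tested. The 13 were RPL3, RPL5, RPL6, RPL9, RPL10, RPL10A, RPL13A, RPL14, RPL15, RPL18, RPL26, RPL28 and RPL29. The 5 small-subunit genes included RPS3A, RPS4X, RPS6 and RPS14, and no stalk gene was called. The median log2 fold change was -0.09, against -0.002 for all genes tested. It was -0.037 without Parental replicate 2, with 47 of 79 values below 0, and -0.13 without Parental replicate 3. All 3 JMJD3 knockout libraries lay below all 3 Parental libraries in 24 genes and above them in 2, against 25.3% below and 23.6% above over all genes tested. Without Parental replicate 3 the count that fell was 38, with 2 higher (16.4% lower and 15.4% higher over all genes). Leaving out another library gave 14 lower without Parental replicate 1 (16.2% of all genes) and 12 without Parental replicate 2 (18.3%). It gave 20 without JMJD3 knockout replicate 1 (16.4%), 12 without its replicate 2 (18.8%) and 12 without its replicate 3 (16.3%).

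RPS26 had 248, 236 and 258 CPM in JMJD3 knockout libraries, against 170, 186 and 168 CPM in Parental libraries. Every JMJD3 knockout library was well above every Parental one. The log2 fold change was 0.50 ± 0.05 (SE), a level 1.42 times the parental one (adjusted p = 5.84e-07, edgeR).

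RPS27L had 47.2, 38.9 and 46.1 CPM in JMJD3 knockout libraries, against 31.6, 35.0 and 27.8 CPM in Parental libraries. The groups did not overlap, though JMJD3 knockout replicate 2 came close to Parental replicate 2. The log2 fold change was 0.49 ± 0.09 (SE; adjusted p = 0.00147, edgeR), and RPS27 was at 0.02 ± 0.17 (adjusted p = 0.958, edgeR).

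RPL3 (chr22:39312882-39320389, minus strand), which lies next to the peptidyl transferase centre, fell most. It had 2872, 3090 and 2902 CPM in JMJD3 knockout libraries, against 3461, 3663 and 3548 CPM in Parental libraries. The groups were well apart, with a log2 fold change of -0.27 ± 0.05 (SE; adjusted p = 0.000202, edgeR).

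RPL5 (chr1:92831983-92841924, plus strand), a partner of the 5S ribosomal RNA and of MDM2, had 1129, 1129 and 1178 CPM in JMJD3 knockout libraries, against 1422, 1425 and 1275 CPM in Parental libraries. The groups were apart, with the lowest Parental library being replicate 3, and the log2 fold change was -0.26 ± 0.05 (SE; adjusted p = 0.00045, edgeR). Its partner RPL11 was at -0.13 ± 0.05 and was not called (adjusted p = 0.0625, edgeR). RPL13A (chr19:49487554-49492308, plus strand) had 2232, 2292 and 2216 CPM in JMJD3 knockout libraries, against 2636, 2728 and 2576 CPM in Parental libraries. These also did not overlap, and the log2 fold change was -0.24 ± 0.04 (SE; adjusted p = 0.000361, edgeR).

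RPL9, RPL10, RPS4X and RPL18 were also among the 8 largest falls. RPL9 was at -0.24 ± 0.06 (adjusted p = 0.00998, edgeR), but its JMJD3 knockout libraries at 725, 682 and 713 CPM came close to Parental replicate 3 at 735 CPM, and 35.8% of the reads on RPL9 or its 15 named pseudogenes were assigned to the pseudogenes. RPL10, which is fitted late in the maturing of the large subunit, was at -0.22 ± 0.05 (adjusted p = 0.00145, edgeR). RPS4X was at -0.21 ± 0.05 and RPL18 at -0.20 ± 0.04 (adjusted p = 0.00243 and 0.00136, edgeR). RPS26, RPS27L and 10 of the 18 that fell kept their call under each of the 18 alternatives run, among them RPL3, RPL5, RPL10, RPL10A, RPL13A, RPL15, RPL18, RPS3A and RPS4X. RPL14 kept it under 5 of them, with an adjusted p of 0.047 in the edgeR fit.

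Among genes named for their own sake, RPS6 and RPS14 fell, at -0.13 ± 0.05 and -0.15 ± 0.04 (adjusted p = 0.0311 and 0.0125, edgeR). RPLP0 was at -0.08 ± 0.04 and RPS19 at -0.03 ± 0.05, and neither was called (adjusted p = 0.151 and 0.674, edgeR). RPSA, RPS24 and RPL35A lay between -0.09 and -0.02, while RPS2, RPS18 and RPL41 were at -0.10 ± 0.05, -0.10 ± 0.06 and -0.16 ± 0.07, none of them called. RPL39L was not called in either comparison, with 6.08, 5.63 and 4.05 CPM in JMJD3 overexpression and 4.61, 4.99 and 3.84 CPM in Vector control libraries, and 6.76, 5.42 and 5.97 CPM in JMJD3 knockout and 4.08, 6.11 and 4.20 CPM in Parental libraries. These groups overlapped.

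Of the 79 genes RPS29 stood furthest below the other Parental libraries in Parental replicate 3. RPS29 relative to the first 2 replicates was at -0.94 on the log2 scale in Parental replicate 3 and at 0.07 in JMJD3 knockout replicate 3. RPL17 and RPLP1 were at -0.39 and -0.38 in Parental replicate 3. Other genes were lower than these there, among them RPL37, RPL38 and RPL39 at -0.43 each. Counts per FPKM of RPS29 relative to RPL3 were 0.0574, 0.0412 and 0.0491 in JMJD3 knockout libraries and 0.0547, 0.0524 and 0.0361 in Parental libraries. A fit with the third replicates as a term called 0 genes of 14186 in edgeR in either direction (0% of all genes), with 131 higher and 183 lower at an unadjusted p under 0.05. That term is common to both groups, so it may miss a shift in 1 library. Over the ribosomal protein genes the chi-square averaged 288 and 401 for Parental replicate 3 against replicates 1 and 2. Between Parental replicates 1 and 2 it averaged 68.1. For JMJD3 knockout it averaged 34.3 for replicate 3 against each of the others and 76.5 between replicates 1 and 2. The median ratio of the third replicate over the first 2 was -0.004 in JMJD3 knockout and -0.16 in Parental cells.

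**Figure D4:**
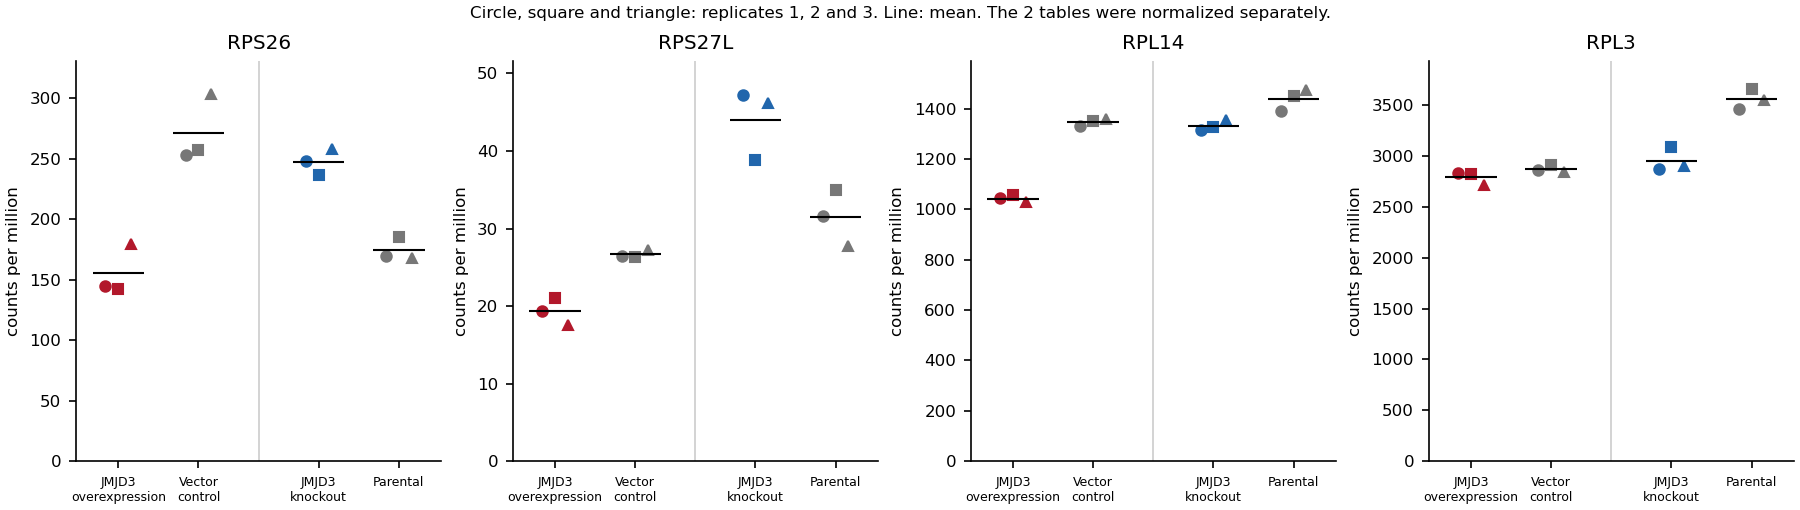
CPM of RPS26, RPS27L, RPL14 and RPL3 in every library of the 4 groups, with circles, squares and triangles for replicates 1, 2 and 3 and a line at the mean. RPS26 and RPS27L are lower with JMJD3 overexpression and higher in JMJD3 knockout, each without overlap with its own control, and RPL3 is lower in JMJD3 knockout than in Parental libraries.

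Set side by side, RPS26 and RPS27L were the genes called in opposite directions, at -0.80 and -0.47 with JMJD3 overexpression and 0.50 and 0.49 in JMJD3 knockout. The comparisons share no library. Of the 13721 genes tested in both comparisons, 17% were called in opposite directions, so these 2 of 79 are below that share. RPL10, RPL14, RPL28, RPS3A and RPS4X were called lower in both, 5 of 79 against 3.01% of all genes. With JMJD3 overexpression RPL14 kept its call under all 18 alternatives, RPL10 and RPL28 under 10, RPS4X under 7 and RPS3A under 6. In JMJD3 knockout RPL10, RPS3A and RPS4X kept it under all 18, RPL28 under 12 and RPL14 under 5. The 2 tables were normalized separately, and their controls differed: RPS26 stood at 253 to 304 CPM in Vector control libraries and at 168 to 186 CPM in Parental libraries. KDM6B RNA was higher than in its control in 1 comparison and lower in the other, as given above. RPS26 has 24 named pseudogenes, which held 0.655% and 0.823% of the reads on the family in the overexpression and knockout tables, and RPS27L has 0.

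In the authors' deposited table none of the 82 genes is marked significant in either comparison. That table gives RPS26 a log2 fold change of -0.79 with an FDR of 1.85e-09 for JMJD3 overexpression and 0.48 with an FDR of 1.12e-16 for JMJD3 knockout. It gives RPS27L -0.49 and 0.46.

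The share of all counts that fell on ribosomal protein genes was 7.22%, 7.19% and 6.37% in JMJD3 overexpression libraries, against 7.18%, 7.33% and 6.83% in Vector control libraries. The groups overlapped, and the difference of -0.187 percentage points gave p = 0.7 in an exact two-sided permutation test. Without JMJD3 overexpression replicate 3 the difference was 0.0903 points. As a share of summed FPKM it was 15.6%, 15.4% and 13.2% in JMJD3 overexpression libraries, against 17.4%, 16.1% and 16.5% in Vector control libraries. On that scale the groups did not overlap, and the difference of -1.95 points gave p = 0.1 in the same exact test, the smallest possible. In JMJD3 knockout libraries it was 8.40%, 8.25% and 8.29%, against 8.96%, 9.42% and 8.47% in Parental libraries. These groups did not overlap, and the difference of -0.638 percentage points gave p = 0.1 in the same exact test, the smallest value that 3 libraries against 3 allow. The difference was -0.404 points without Parental replicate 2, and -1.87 points as a share of summed FPKM (exact p = 0.1). Mitochondrially encoded genes took 6.75%, 6.62% and 5.82% of counts in JMJD3 overexpression libraries, against 4.14%, 4.21% and 3.85% in Vector control libraries. With mitochondrially encoded genes left out of the total, the ribosomal protein share averaged 7.40% in JMJD3 overexpression and 7.41% in Vector control libraries. The difference was then -0.0136 percentage points. For JMJD3 knockout against Parental it was -0.658 points on the same total (p = 0.1, the same exact test). In bulk RNA, less RNA per cell for these genes and a change in the mix of cells cannot be told apart.

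**Figure D5:**
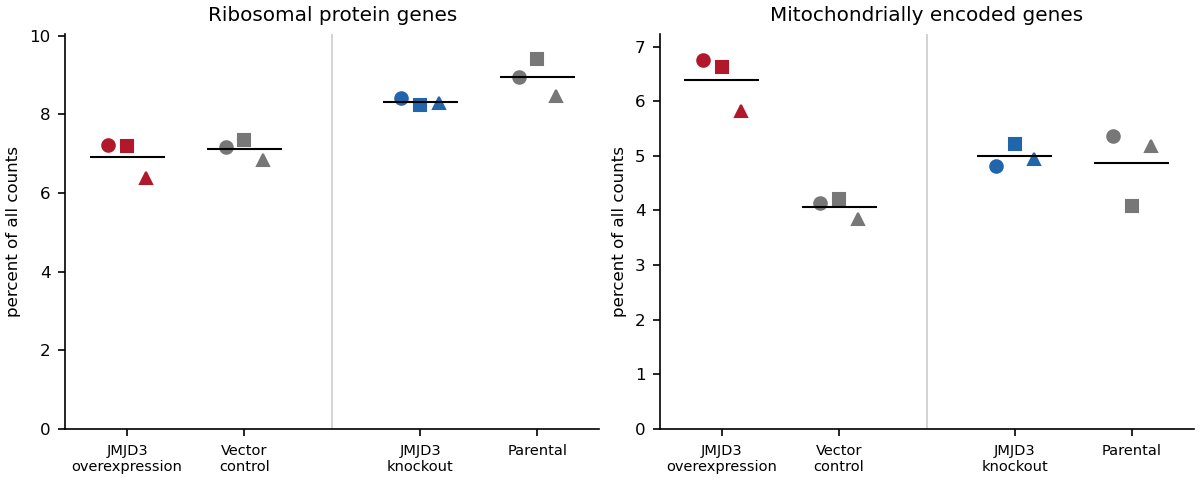
Percent of all counts on the 82 ribosomal protein genes (left) and on mitochondrially encoded genes (right) in each library, with circles, squares and triangles for replicates 1, 2 and 3 and a line at the mean. The ribosomal protein share overlaps between JMJD3 overexpression and Vector control and lies lower in JMJD3 knockout than in Parental, and the mitochondrial share is higher with JMJD3 overexpression.

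Calls fell among genes with and without a pyrimidine run opening exactly at an annotated start. The group without it is not a group known to lack the tract. In RPL10A and RPL19, for example, pyrimidines ran close to the annotated start but did not open with C exactly there. Of the 46 tested genes with a pyrimidine run at an annotated start, 9 fell and 0 rose with JMJD3 overexpression, and 10 fell and 0 rose in JMJD3 knockout. Over all genes 23.9% fell and 26.4% rose with JMJD3 overexpression, and 20.2% fell and 17.6% rose in JMJD3 knockout. Of the 17 tested genes with an entry but no such run, 5 fell and 0 rose with JMJD3 overexpression, and 6 fell and 2 rose in JMJD3 knockout. The medians were -0.16 with the run and -0.17 without it for JMJD3 overexpression, and -0.09 with and -0.09 without it for JMJD3 knockout. RPS26 and RPS27L, whose windows are printed above, are both among the 17.

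In each of 5 lists of other genes of the translation apparatus, more genes were called lower than higher with JMJD3 overexpression. Among 7 tested ribosomal proteins outside the name rule, 4 fell and 0 rose, RPL26L1 at -0.76 ± 0.09 being the most changed (median -0.31). Of 21 chaperones and export factors of ribosomal proteins, 14 fell and 0 rose (median -0.45), among them GRWD1 at -0.90 ± 0.09 and LTV1, an escort of the small subunit, at -0.65 ± 0.06. Of 28 translation initiation factors, 19 fell and 1 rose (median -0.41), with EIF3B at -0.72 ± 0.06 and EIF5A at -0.74 ± 0.06. Of 22 other genes known for terminal oligopyrimidine messages, 10 fell and 1 rose (median -0.19), with NPM1, a nucleolar chaperone, at -0.90 ± 0.06 and VIM, which encodes vimentin, higher at 1.797 ± 0.08. Of 22 mTORC1 pathway genes, 10 fell and 2 rose, LARP1 at -0.51 ± 0.05 and TSC2 at -0.62 ± 0.11 being lower and DDIT4, an inhibitor of mTORC1, higher at 1.47 ± 0.11. The calls are edgeR's at an adjusted p under 0.05 over all genes, of which 23.9% were lower and 26.4% higher. With the block, where 36.8% of all genes were lower and 36.4% higher, mTORC1 pathway genes had 13 lower and 6 higher, and the ribosomal proteins outside the name rule 7 lower and 0 higher. Chaperones and export factors then had 17 lower and 0 higher, initiation factors 24 and 2, and the terminal oligopyrimidine list 15 and 1.

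In JMJD3 knockout the same lists were mixed, apart from the terminal oligopyrimidine one, beside 20.2% lower and 17.6% higher over all genes. That list had 15 of 22 genes lower and 2 higher (median -0.17), with EEF2, an elongation factor, at -0.43 ± 0.05 and VIM at -1.03 ± 0.06. Chaperones and export factors had 8 higher and 5 lower of 21, GRWD1 being at 0.44 ± 0.05 and NMD3 at -0.36 ± 0.05. Initiation factors had 9 higher and 8 lower of 28, with EIF1 at -0.66 ± 0.05. mTORC1 pathway genes had 5 higher and 6 lower of 22, with DDIT4 at -1.09 ± 0.09 and MLST8, a subunit of mTORC1, at -0.59 ± 0.05. Of the 7 ribosomal proteins outside the name rule, 1 rose, RPL26L1 at 0.37 ± 0.08, and 3 fell, among them GNB2L1 (RACK1) at -0.26 ± 0.05.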

How the data were processed

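RNA from 12 HL-60 libraries in 4 groups was sequenced. Per the labels, libraries were made with the TruSeq RNA kit, and per the submitters' processing notes CASAVA 1.8, TopHat2 2.0.4, RSEM, edgeR and the build GRCh38 were used, with no roles given. The authors deposited 2 tables that give every library counts and FPKM, plus log2 fold changes, p-values and FDR values of their own. As deposited, the count columns held expected counts (estimated counts per gene) multiplied by 1 factor per library: dividing it out made 92.9% to 94.0% of values of up to 1000 whole within 0.02, and the result was rounded. This scaling was inferred from the values and is not stated by the authors. FPKM values were used as deposited.

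All genes of a table were fitted together in edgeR 4.0.16 (quasi-likelihood test, TMM scaling, filterByExpr, robust, adjusted p under 0.05 over all genes tested), without a block, and the 2 tables were never fitted together. CPM are TMM-scaled, and an SE is the log2 fold change divided by the root of F. Shares used an exact two-sided permutation test. Same-numbered libraries were correlated in their deviations from the group means at 0.199, 0.238 and 0.553 in the overexpression table, all over 0.1, so blocked values are given there. Replicates 1 and 2 correlated as well across numbers (0.255 and 0.203). Over the ribosomal protein genes alone, JMJD3 overexpression replicate 1 was at 0.593 with Vector control replicate 1 and 0.93 with replicate 2. JMJD3 overexpression replicate 2 was at 0.599 and 0.867 with the same 2 libraries. Alternatives were DESeq2 1.42.0, limma 3.58.1 on log2(FPKM + 1) and log2(FPKM + 0.1), other scaling, no filter, the block, left-out libraries and summed replicates. 13 lines of the overexpression table held no values and were left out.

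The genes, the lists and the searches were chosen with earlier results of these data known. Named genes were the 8 largest called rises and falls, genes called in opposite directions, the most and least abundant genes, those not tested, and a fixed set of paralogs, stalk, disease and reference genes. RPL35, RPL39 and RPS29 and the replicates-1-and-2 rises were named after their values were seen. Gene positions are from GENCODE 29 (GRCh38), and start sequences from RefSeq GRCh38.p14. Scripts were tested on simulated data. A few named genes are not reported here.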

Additional observations from a re-analysis of the deposited data

How the results depend on the processing

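Depth was ample for all but a few genes: 77 and 78 of the 79 tested genes averaged over 1000 counts a library in the overexpression and knockout tables, so the spread between libraries, not counting, limits most values. RPL39L, RPL3L, RPL10L and RPS10L are limited by counts.

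For JMJD3 overexpression, the 17 lower and 0 higher became 7 lower with upper-quartile scaling, 4 with library size alone, 56 with the replicate block, 58 with the third replicates as a batch term (added after seeing the data), 50 lower and 4 higher with replicates 1 and 2 only, and 3 lower with replicates 1 and 2 summed. Without the low-count filter 1 of 82 genes was higher, RPS10L, on 12 counts against 0, beside 14.6% of all genes. Of all genes, 23.9% were lower in the first fit, and 18.6%, 15.4%, 36.8%, 37.1%, 34.5% and 11.1% in these alternatives in turn. Leaving out 1 library gave 8 to 22 lower (18.1% to 24.3% of all genes). The median of -0.18 became -0.089 with upper-quartile scaling and -0.034 with library size alone, and was -0.21 to -0.10 with 1 library left out. Under those scalings the median over all genes moved as well, from -0.003 to 0.084 and 0.14 in turn. The share difference of -0.187 points became -1.95 points of summed FPKM and ranged from -0.334 to 0.0903 with 1 library left out, turning positive without JMJD3 overexpression replicate 3.

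For JMJD3 knockout, the 18 lower became 31 of 82 genes without the filter, where 11.4% of all genes were lower. Without Parental replicate 3 they became 38, beside 16.4% of all genes. The lowest and highest with 1 library left out were 12 and 38. The median of -0.09 ranged from -0.13 to -0.04 with 1 library left out. The share difference of -0.638 points became -1.87 points of summed FPKM. Same-numbered knockout libraries correlated at 0.036, -0.123 and -0.069, so the numbers do not pair them. The block gave 12 lower and 2 higher, all 14 of them among the 20 called without it. Over all genes the block gave 17.5% lower and 14.9% higher. In the terminal oligopyrimidine list the block left 11 lower of 15. With library size alone and with replicates 1 and 2 only, the knockout count lower was 26 each time, beside 20.7% and 13.6% of all genes. Of the values compared, 62 in the knockout table and 47 in the overexpression table kept their direction. They were classed as unmoved by limits that are not given here. No single named gene reversed a call. Causes were not tested.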
